A study of Oryza sativa Japonica Group with 32 samples.

Results

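N6-methyladenosine (m6A) sites whose central letters are a purine, A and C (RAC, where R is A or G) were taken from the 3′ untranslated regions (3′ UTRs) of nuclear rice genes. Of the 205691 sites in the deposited m6A table, 37143 met the rule, all on chromosomes 1 to 12 of the IRGSP-1.0 build and in 12686 genes. The m6A fraction is the estimated share of transcripts methylated at an adenosine, and a tissue was taken to carry a site, here called counted, if the fraction was 0.1 or more with a read depth of 20 or more. By this definition 34623 sites (93.2%) in 11991 host genes were counted in at least 1 tissue. Of the other 2520 sites, 2278 stayed below that depth throughout and 242 reached the depth but not the fraction. Around the fraction threshold the values were continuous, with 4047 site and tissue values between 0.09 and 0.1 and 4337 between 0.1 and 0.11.

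All samples came from the japonica cultivar Nipponbare, with no mutant or chemical treatment of the plants. The tissues were plumules kept in light, plumules kept in the dark, seedlings of 8 days, seedlings of 2 weeks, heading panicles, and flag leaves, embryos and endosperms taken 10 days after anthesis. Poly(A) RNA of every tissue went into 2 treated and 2 untreated libraries, 32 in all, where treated means that the RNA went through m6A-SAC-seq, in which the enzyme MjDim1 places an allyl group on m6A so that reverse transcription leaves a mutation there, and spike-in probes calibrate mutation rate to fraction. The site table gives 1 fraction and 1 depth for a tissue, with the replicates already combined, so no replicate error exists for a single site. Transcript abundance was given as TPM, a length-normalised share of the transcripts in a library, for the 16 untreated libraries, 2 for each tissue.

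In plant mRNA, m6A is written mainly by a complex built around the methyltransferase MTA and its partners such as FIP37 and VIRILIZER, and proteins with a YTH domain bind the mark. The complex prefers adenosines in a purine-A-C setting, and the mark is densest in the 3′ UTR near the stop codon. In Arabidopsis and rice, loss of writer components disturbs embryo, shoot or pollen development, and m6A in transcripts has been tied to their stability and translation.

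Sites often lay so close together that the deposited 5-mers, each a site with its flanking letters, overlapped and could be joined into an unbroken run. In 17 runs 3 counted sites were joined and in 589 runs 2 were, and none of 1668 overlaps compared held conflicting letters. The runs below show how tightly sites were packed, and that sites a few bases apart could carry very different fractions. They were chosen after their values were seen. Each is written 5′ to 3′ on the transcript strand with U for T, and the capitals mark the purine-A-C letters, whose A is the measured site.
OsmMDH: aAACagAACaaAACu
OsARF7: gGACugAACugAACc
SLR1: gGACgAACcgAACu
Os03g0322500: gGACagGACauGACc
Os03g0854800: uGACaAACaaAACu
SIP30: gGACaAACcuAACa
PP2A-A: uAACaGACcaAACa
JMJ712: aAACcuGACagAACc

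In Os03g0322500 (chr3:11677306-11677320, plus strand) the sites fell stepwise along the run, although all of them were centred on GAC. The fraction of its first site was 0.740 in light plumules, 0.788 in dark plumules, 0.853 in seedlings of 8 days, 0.798 in seedlings of 2 weeks, 0.826 in panicles, 0.553 in flag leaves, 0.869 in embryos and 0.606 in endosperms. The middle site ranged between 0.347 and 0.570 over the same tissues, and the last between 0.0714 and 0.158. In all 8 tissues the order of the sites was the same, and their ranges over tissues overlapped only between the first and the middle site.

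PP2A-A, the scaffold subunit of protein phosphatase 2A, had the opposite arrangement, with the high site in the middle (chr9:3758212-3758225, minus strand). Its GAC site had fractions of 0.702 in light plumules, 0.634 in dark plumules, 0.715 and 0.879 in seedlings of 8 days and 2 weeks, 0.683 in panicles, 0.746 in flag leaves, 0.877 in embryos and 0.783 in endosperms. The AAC sites on either side stayed between 0 and 0.277 and between 0.167 and 0.398, so no tissue brought either of them up to the level of the site between them. In the run of JMJ712, a jumonji domain gene (chr9:18863432-18863446, minus strand), the middle site was instead the low one, with a mean of 0.141 over the 4 tissues in which it was counted, beside 0.997 and 0.349 for its neighbours over 6 tissues each. The first site of SIP30 (chr7:19309306-19309319, plus strand) had a fraction of exactly 1 in all 8 tissues at depths of 43 to 92, while its middle site ranged between 0.128 and 0.810.

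OsmMDH, a mitochondrial malate dehydrogenase gene, carried a run of nearly even sites (chr1:26194325-26194339, plus strand), with means of 0.269, 0.232 and 0.333 over the 8 tissues. The run of the auxin response factor gene OsARF7 (chr2:21103958-21103972, plus strand) had means of 0.524, 0.262 and 0.593 over the 5 or 6 tissues in which each site was counted. SLR1 encodes the DELLA protein that represses gibberellin responses, and its run (chr3:28515063-28515076, plus strand) lay 12 to 21 nt before a splice junction and had low means of 0.125, 0.238 and 0.302 over the 3 to 5 tissues in which each was counted. In Os03g0854800 (chr3:36002105-36002118, minus strand) the last of the 3 sites stood above the others, with a mean of 0.667 against 0.209 and 0.158. Over all 17 runs, the highest and lowest site means differed by 0.0976 to 0.856, and by at least 0.2 in 12 runs.

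The tissue labels were checked against marker genes, apart from light or dark and seedling age, before the sites were compared. Summed endosperm marker TPM (3 genes) was 28468 in endosperms, 2125 in embryos and at most 18.8 elsewhere, and the 25 embryo markers summed to 45984 in embryos, 8075 in endosperms and at most 2093 elsewhere, so embryo libraries also held endosperm marker transcripts and the reverse. Panicle markers (6 genes) summed to 929 TPM in panicles, 397 TPM in endosperms and at most 78.3 TPM elsewhere. Leaf markers (3 genes) were lower in light plumules (1129 TPM) than in dark plumules (1437 TPM), against 24288 to 26305 TPM in seedlings. Light and dark plumule libraries correlated with each other (r = 0.995 to 0.996 over genes, log scale) as closely as replicates did (0.993 to 0.996), while libraries of other tissue pairs reached at most 0.939. No marker list used here is specific to light or dark, and leaf markers were not higher in light, so values are given for plumules labelled light and dark without an independent check of those labels. The part of the overlaps between libraries in the site values was not tested.

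In each tissue 18842 to 24619 of the sites were counted, in 7598 to 9506 genes, and their m6A levels were high and broadly spread. The mean fraction of counted sites was 0.449 in light plumules, 0.446 in dark plumules, 0.457 in seedlings of 8 days, 0.473 in seedlings of 2 weeks, 0.464 in panicles, 0.454 in flag leaves, 0.479 in embryos and 0.458 in endosperms. Medians were lower (0.358 to 0.400), since the distribution had a long upper part, and 35.2 to 39.7% of the sites of a tissue had a fraction of 0.5 or more. Fractions of exactly 1, where the calibrated estimate met its upper bound, made up 9.68 to 11.8% of counted values. Median depth at counted sites ran between 57 in seedlings of 2 weeks and 88 in flag leaves. How the depths of replicate libraries were combined is not stated, so no counting interval is given for single fractions.

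**Figure D1:**
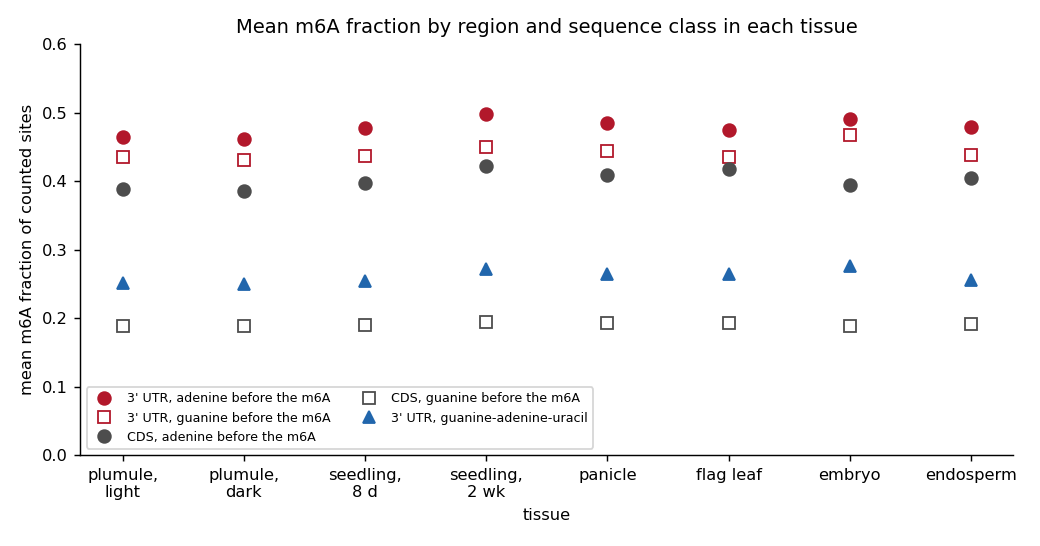
Mean m6A fraction of counted sites (vertical axis, from 0) in each of the 8 tissues (horizontal axis), as 1 point for each tissue and set: 3′ UTR sites in red and CDS sites in grey, AAC as filled circles and GAC as open squares, and 3′ UTR GAT sites (GAU in RNA) as blue triangles. The 3′ UTR AAC points lie at 0.461 to 0.497 and the GAC points at 0.431 to 0.467, above CDS AAC (0.386 to 0.421), GAT and CDS GAC (0.188 to 0.195) in every tissue.

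Sites of the same sequence class in coding sequence (CDS) and sites of another class, GAT (GAU in RNA), in the same 3′ UTRs were both methylated to a lower level. Averaged over the 8 tissues, the mean fraction was 0.460 ± 0.0113 at 3′ UTR RAC sites and 0.224 ± 0.00325 at CDS RAC sites (SD over tissues), a difference of 0.236 (0.226 to 0.257 within tissues). Against 3′ UTR GAT sites, at 0.261 ± 0.00966, the difference was 0.199 (0.190 to 0.203). Both were positive in 8 of 8 tissues, and an exact two-sided sign-flip permutation test over tissues gave p = 0.00781 for each, the smallest that 8 tissues allow (0.00938 after Benjamini-Hochberg adjustment over the 6 tests made). The tissues share genes, sites and a single site list, so this p measures agreement between tissues and not between plants. Sites with a fraction of 0.5 or more were 5.57 to 6.66% of counted CDS RAC sites and 9.40 to 12.8% of counted GAT sites, far below the share in 3′ UTR RAC sites.

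The size of the regional difference depended on the central letters. AAC made up 42.9% of the 3′ UTR RAC sites and 12.6% of the CDS RAC sites. At AAC sites the mean over tissues was 0.479 in 3′ UTRs and 0.402 in CDS, a difference of 0.0765, whereas at GAC sites it was 0.442 in 3′ UTRs and 0.191 in CDS, a difference of 0.251. Each was positive in 8 of 8 tissues (exact permutation p = 0.00781). This split by central letters was added after the data had been seen.

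Within the 3′ UTR, the letters around the adenosine went along with large differences in fraction. The assay signal itself depended on the letters, since the study reports a much higher mutation ratio at GAC than at AAC on its spike-in probes. The part of this in the differences by letters, or in the AAC share of each region, was not tested. The highest means over tissues, among the 32 possible 5-mers, were those of GAACC (0.585 ± 0.0168, 1058 counted sites), GGACA (0.560 ± 0.0156, 1705 sites) and AAACC (0.552 ± 0.0212, 1375 sites). Next came AAACU at 0.529 ± 0.0113 and AGACA at 0.524 ± 0.00932, the 5-mers with some of the largest numbers of sites, 2970 and 3020. The lowest were CGACG (0.261 ± 0.0168, 55 sites), UAACG (0.283 ± 0.00986, 117 sites) and CGACC (0.283 ± 0.0245, 87 sites), followed by CGACA at 0.301 ± 0.0128. All errors are SDs over the 8 tissues.

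A G after the central letters went with a low fraction whether these were AAC (0.344 ± 0.00930) or GAC (0.345 ± 0.0127). The letter that went with the highest mean differed between the centres, since AAC followed by C averaged 0.553 ± 0.0192 and AAC followed by A 0.436 ± 0.0106, whereas GAC followed by C averaged 0.406 ± 0.0151 and GAC followed by A 0.482 ± 0.0107. Before GAC, a C went with a mean of 0.345 ± 0.0174, below the 0.405 to 0.489 of the other letters, and before AAC the letters spread over only 0.444 to 0.490. Values of exactly 1 were also uneven, at 26.3% of counted values for GGACA and 26.1% for AGACA but 5.31% for AAACA and 0.758% for GAACG.

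AAC sites had a higher mean fraction than GAC sites, 0.479 ± 0.0124 against 0.442 ± 0.0116 (SD over tissues), a difference of 0.0368 that was positive in 8 of 8 tissues (0.0241 to 0.0476, exact permutation p = 0.00781, adjusted 0.00938). The difference hinged on which values entered. At a fraction minimum of 0.2 it turned to -0.0180 and was negative in all 8 tissues (exact permutation p = 0.00781). It also shrank with depth: at depths of 20 to below 50 the means were 0.583 for AAC and 0.489 for GAC, at 50 to below 100 they were 0.478 and 0.436, at 100 to below 300 they were 0.426 and 0.402, and from 300 up they were 0.379 and 0.372. With a depth minimum of 300 the difference was 0.00844, positive in 4 of 8 tissues (exact permutation p = 0.320).

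The classes also differed in how far a site's fraction moved between tissues. Among the 8187 sites read 50 or more times in every tissue, 4470 AAC sites had a median range over tissues of 0.327 and 3717 GAC sites one of 0.155. Exact zeros made up 3.52% of the AAC values and 0.407% of the GAC values, and exact ones 5.15% and 6.81%. An exact 0 may be a failed or bounded estimate as well as an unmethylated site. Ranges of the AAC sites therefore hold both movement between tissues and noise of the estimate, which these pooled values cannot tell apart. In CDS the order was alike, with median ranges of 0.273 for 1325 AAC sites and 0.106 for 7372 GAC sites.

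Most host genes carried more than 1 site. Over all tissues the mean was 2.89 sites for each of the 11991 host genes and the median was 2. Exactly 1 site was found in 3541 genes (29.5%), 2 in 2709, 3 in 2032 and 4 in 1558, while 2151 genes (17.9%) had 5 or more, 99 of them 10 or more. Within a tissue the mean lay between 2.48 in seedlings of 2 weeks and 2.68 in flag leaves. Per host gene, 3′ UTR RAC sites outnumbered CDS RAC sites, at 2.58 ± 0.0571 against 2.00 ± 0.0804 (SD over tissues), a difference of 0.582 that was positive in 8 of 8 tissues (exact permutation p = 0.00781, adjusted 0.00938).

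This difference rested on the fraction minimum and on AAC sites. With every listed site of sufficient depth included, the means were 2.87 in 3′ UTRs and 2.86 in CDS (difference 0.0116, exact permutation p = 0.602, positive in 6 of 8 tissues). With GAC sites alone it turned to -0.119, at 1.72 in 3′ UTRs and 1.84 in CDS, negative in all 8 tissues (exact permutation p = 0.00781). The lengths of the regions were not available here, so sites per kilobase are not given.

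Of the host genes, 8544 (71.3%) also had counted CDS RAC sites. In those genes the gene mean averaged 0.451 in the 3′ UTR and 0.206 in the CDS, and the 3′ UTR mean was the higher in 7680 (89.9%). Site numbers in the 3′ UTR and CDS of the same gene were loosely related (Spearman's rho 0.143 over 8544 genes, which are not independent replicates). Sites of the same 3′ UTR were hardly more alike than sites of different genes, with an intraclass correlation of 0.0979 over 31082 sites in 8450 genes with 2 or more sites and an SD within genes of 0.248, beside 0.261 over all sites.

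The genes with most sites were of mixed kinds. OsSPO11-5, a member of the SPO11 family related to topoisomerase VI, had 22 counted sites on 2 annotated transcripts (chromosome 11, between 20068201 and 20074584), with 11 to 17 in each tissue, site means of 0.101 to 0.780 and 4 sites counted in all 8. Os08g0202300 had 20 sites. In seedlings of 2 weeks 16 were counted, where the gene stood at 31.2 ± 2.01 TPM (SD, n = 2), and 20 in flag leaves at 19.5 ± 0.418 TPM. In seedlings of 8 days 2 were counted at 3.92 ± 0.830 TPM, and 0 in the other tissues, where it was at most 1.88 TPM. Depths in those other tissues were at most 18, below the depth minimum, so no site could be counted there. Os02g0617300 had 17 sites, with 0 counted in flag leaves (2.29 ± 0.0862 TPM) and 7 to 13 in each other tissue (9.89 to 41.1 TPM). In flag leaves its depths were 2 to 18, also below the minimum. Os02g0469200 and Os03g0586600 followed with 16 and 15 sites. Unlike the others, Os03g0586600 had them all within 388 nt of a single transcript.

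Some genes had many sites counted in every tissue, and since they were chosen for this their values are a description. A site counted in all 8 tissues was present in 4546 genes, and the highest number of such sites was 10, in Os01g0617500 (chromosome 1, 24534972 to 24535456). The summed fraction of its counted sites lay between 4.82 in light plumules and 6.01 in flag leaves, at 12.3 to 39.7 TPM. Os01g0296100 and Os02g0517531 had 9 such sites each, and Os02g0252100 and Os02g0621700 had 8 each. The summed fraction of Os02g0517531 ranged between 2.69 and 4.50 over tissues. That of Os02g0252100 ranged between 4.72 and 5.64, and its 9 sites lay within 189 nt.

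Many of the sites had a close neighbour. In the 3′ UTR, 55.6% of counted RAC sites had another one within 50 nt on the same transcript, against 20.9% of CDS RAC sites and 28.0% of 3′ UTR GAT sites. The median distance to the nearest such site was 35 nt in the 3′ UTR, 131 nt in the CDS and 63 nt for GAT sites. Within 10 nt the shares were 13.9%, 4.29% and 4.93%, and the commonest nearest distance in the 3′ UTR was 7 nt (860 sites). Sites alone on their transcript made up 10.9% in the 3′ UTR, 13.4% in the CDS and 35.3% for GAT sites. The sets differed in the number of sites on a transcript, which enters all of these shares.

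**Figure D2:**
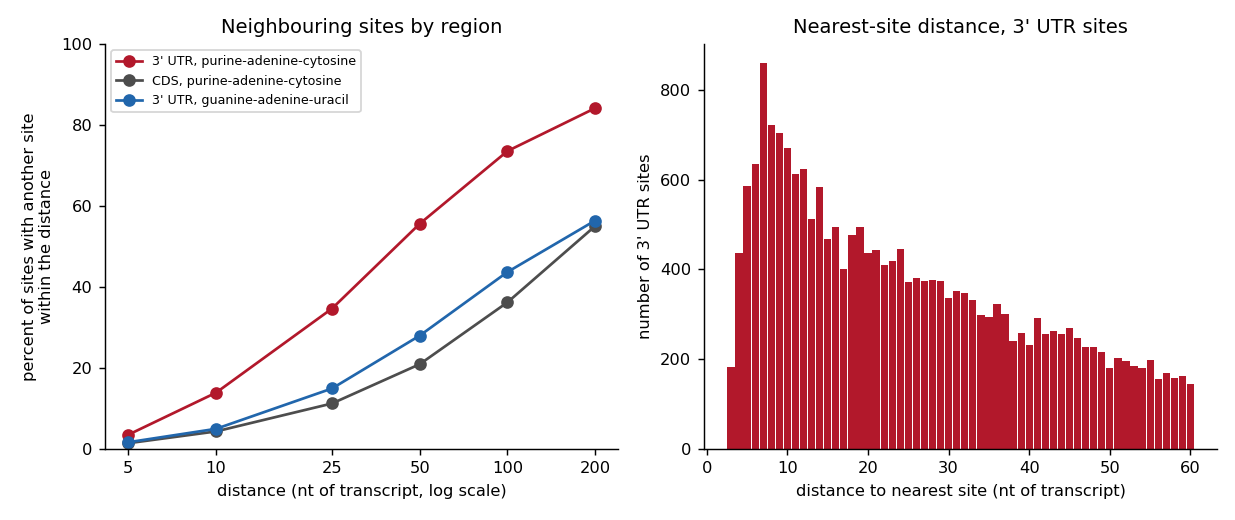
Left, percent of counted sites with another counted site of the same set within a distance on the transcript (nt, log axis) for 3′ UTR purine-A-C sites (red), CDS purine-A-C sites (grey) and 3′ UTR GAT sites (blue), with 55.6%, 20.9% and 28.0% at 50 nt. Right, number of 3′ UTR purine-A-C sites by distance to the nearest one (nt, shown up to 60), with the peak of 860 sites at 7 nt.

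Within single tissues the share of sites with a neighbour in 50 nt was 54.4 ± 0.867% in 3′ UTRs and 12.7 ± 0.807% in CDS (SD over 8 tissues), which differ by 41.7 percentage points, with the same sign in 8 of 8 tissues (40.3 to 44.1, exact permutation p = 0.00781, adjusted 0.00938). It remained positive in 8 of 8 tissues with AAC sites alone (37.4 points) and with GAC sites alone (18.1 points), both added after the data had been seen. Where a transcript had exactly 2 sites, these lay a median of 72 nt apart in 2768 3′ UTRs and 251 nt apart in 2637 coding sequences. With 3 sites the median span was 125 nt in 3′ UTRs and 515 nt in coding sequences. Since coding sequences and 3′ UTRs differ in length, and no lengths were at hand, these spans describe positions and not a departure from even spacing.

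Close neighbours did not share their level. The mean absolute difference between neighbouring sites was 0.286 at 3 to 5 nt, 0.305 at 6 to 10 nt, 0.304 at 26 to 50 nt and 0.271 beyond 200 nt. The correlation of their fractions averaged -0.03 at 3 to 5 nt, 0.07 at 6 to 10 nt and 0.13 at 11 to 25 nt over tissues, across pairs that share reads and genes. Of the 2504 neighbouring pairs within 10 nt, 14.7% had means 0.5 or more apart.

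The densest stretches held up to 7 sites in 50 nt. A window of 50 nt held at most 3 sites in 1442 genes, 4 in 230 and 5 in 13. Os03g0854800 had 7 sites in 48 nt (chr3:36002082-36002129, minus strand), of which the site at 36002107 stood out with a mean of 0.667 while the other 6 had means of 0.158 to 0.263. That site had fractions of 0.907 in light plumules, 1 in dark plumules, 0.616 and 0.664 in seedlings of 8 days and 2 weeks, 0.695 in panicles, 0.566 in flag leaves, 0.490 in embryos and 0.398 in endosperms. It was thus highest in the plumules and lowest in the grain tissues.

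JMJ712 had 6 sites in 34 nt (chr9:18863434-18863467, minus strand), of which the site at 18863444 had a fraction of at least 0.980 in the 6 tissues that reached the depth and the other 5 had means of 0.141 to 0.350. None was counted in seedlings of 2 weeks or flag leaves, where the gene stood at 5.09 ± 0.0230 and 1.08 ± 0.209 TPM. Os08g0139000 had 5 sites in 50 nt (chr8:2173736-2173785, minus strand), of which 3 were high, with means of 0.823, 0.817 and 0.821 at 2173785, 2173774 and 2173742, and 2 were low, with means of 0.231 and 0.233 at 2173769 and 2173736. Of the high sites, 2 had GAC and 1 had AAC at the centre, and both low sites were AAC followed by A.

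Distance from the nearest splice junction went along with the fraction. The junction lay upstream of 31728 sites (91.6%), at a median of 324 nt, and these had a mean fraction of 0.452. It lay downstream of 2857 sites (8.25%), at a median signed distance of -112 nt, and these had a mean of 0.287. Beyond an upstream junction the mean fraction was 0.242 at 1 to 50 nt (673 sites), 0.310 at 51 to 100 nt, 0.401 at 101 to 150 nt, 0.457 at 151 to 200 nt and 0.490 at 201 to 250 nt. It was highest at 251 to 300 nt (0.504, 3756 sites), and lower again at 0.449 for 701 to 1000 nt and 0.427 beyond.

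**Figure D3:**
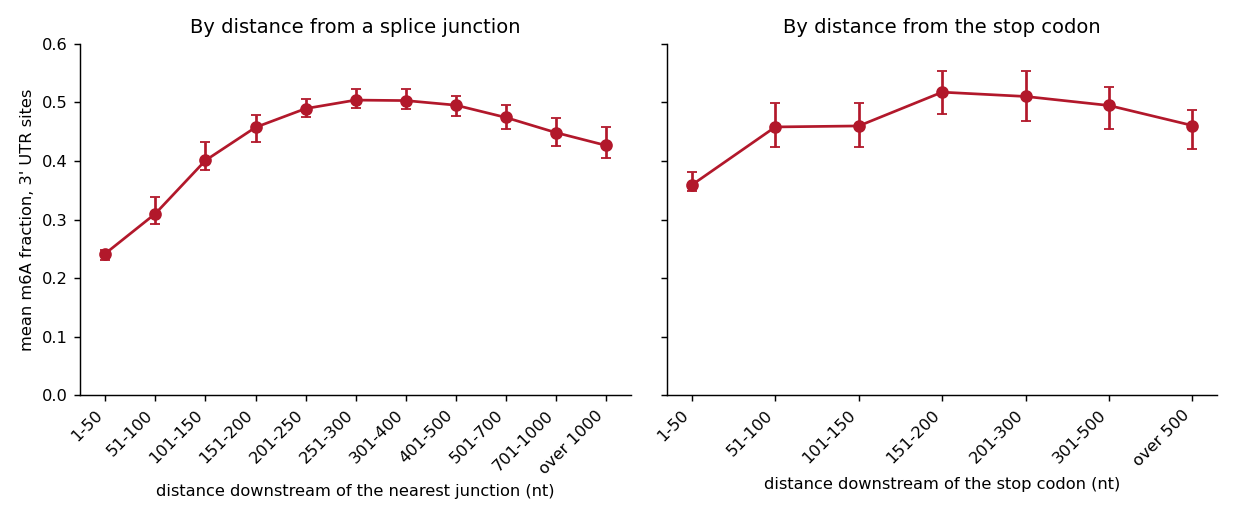
Mean m6A fraction of counted 3′ UTR purine-A-C sites (vertical axis) by distance downstream of the nearest splice junction (left) or of the stop codon (right, 1039 sites), in nt; points are means over the 8 tissues and bars run between the lowest and the highest tissue. The mean past a junction is 0.242 at 1 to 50 nt and 0.504 at 251 to 300 nt.

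The rise over the first bases was seen in every tissue, with tissue means of 0.231 to 0.248 at 1 to 50 nt and 0.490 to 0.523 at 251 to 300 nt. The letters moved with the distance as well: AAC made up 13.97% of the sites at 1 to 50 nt, 28.0% at 51 to 100 nt and 51.9% at 251 to 300 nt. Their part in the trend was not tested. For 317 transcripts the position of the stop codon could be placed from the table, covering 1039 sites with a median distance of 164 nt. Their mean fraction was 0.359 in the first 50 nt after the stop codon, 0.458 at 51 to 100 nt, 0.518 at 151 to 200 nt and 0.461 beyond 500 nt.

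More than any set compared with them, the sites were counted in many tissues at once. Of the 17281 sites read 20 or more times in all 8 tissues and counted in at least 1, 9473 (54.8%, exact 95% binomial interval 54.1 to 55.6) were counted in all 8 and 487 (2.82%) in a single tissue. Among CDS RAC sites 13.1% were counted in all 8 and 17.0% in a single tissue, and among GAT sites 35.0% and 8.85%. Median fractions, averaged over tissues, were 0.376 at 3′ UTR RAC sites, 0.167 at CDS RAC sites and 0.196 at GAT sites. A set with higher fractions passes the fraction minimum in more tissues, so the order of the sets is partly built in. The 3′ UTR RAC sites counted in all 8 tissues averaged 0.530 and those counted in a single tissue 0.170, an order that the fraction minimum itself favours. Their share in all 8 tissues was 33.5% when the authors' detection flag replaced the fraction minimum, and the sets were not compared by that flag.

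**Figure D4:**
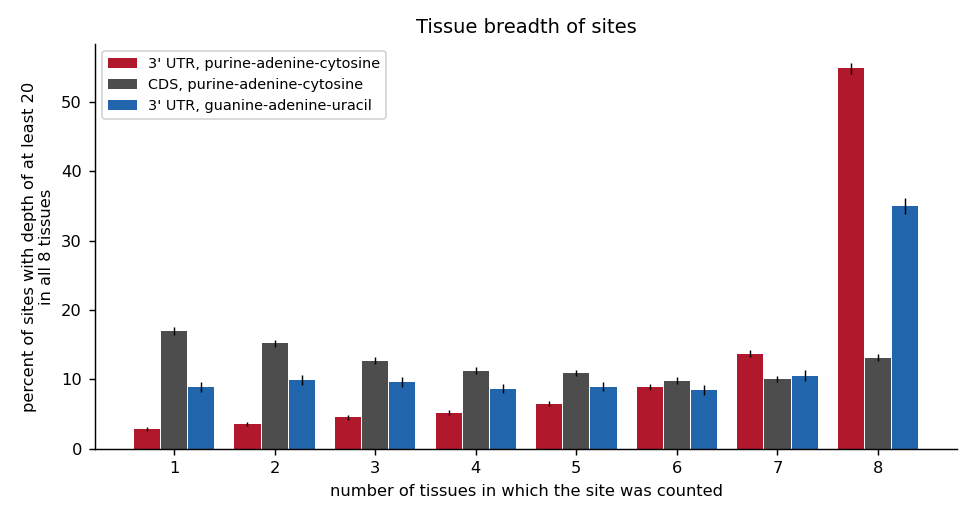
Number of tissues in which a site was counted (horizontal axis, 1 to 8) against the percent of sites read 20 or more times in all tissues (vertical axis) for 3′ UTR purine-A-C sites (red), CDS purine-A-C sites (grey) and 3′ UTR GAT sites (blue), with exact 95% binomial intervals as bars. All 8 tissues were reached by 54.8%, 13.1% and 35.0% of the sites.

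Single-tissue sites were most numerous in endosperms (105) and fewest in dark plumules (34). Ranges between tissues were taken over the 17281 sites that met the depth minimum in every tissue and were counted in at least 1. Of these, 68.9% had fractions spread over a range of 0.2 or more and 23.7% over 0.5 or more. The median range was 0.296, beside 0.153 for CDS RAC sites and 0.150 for GAT sites chosen in the same way. AAC made up 42.9% of the 3′ UTR RAC sites and 12.6% of the CDS RAC sites. In 3′ UTR sites read 50 or more times in every tissue, the median range was 0.327 for AAC but 0.155 for GAC. The part of the central letters, and of noise of the estimate, in the difference between the sets was not tested. On the 17281 shared sites the tissue means were 0.357 in light plumules, 0.353 in dark plumules, 0.374 in seedlings of 8 days, 0.404 in seedlings of 2 weeks, 0.382 in panicles, 0.371 in flag leaves, 0.393 in embryos and 0.380 in endosperms. The highest mean stood beside the lowest median depth, 64 in seedlings of 2 weeks against 87 to 132 in the other tissues, and the part of depth in it was not tested.

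Reproductive tissues (panicles, embryos and endosperms) averaged 0.385 ± 0.00737 on these sites and vegetative tissues 0.372 ± 0.0203 (SD over 3 and 5 tissues). The difference of 0.0130 did not exceed the spread between tissues (exact permutation test over 56 groupings, two-sided p = 0.321, adjusted 0.321, smallest possible 0.0179). Leaving out 1 tissue at a time gave differences of 0.00828 to 0.0205. Between plumules labelled light and dark, labels that no marker list here checks, 24485 sites with sufficient depth in both averaged 0.407 in light and 0.403 in dark. Of these 2859 were higher in light by 0.2 or more and 2680 lower, which with a single pooled value for each condition allows no test. Embryos averaged 0.428 and endosperms 0.410 over 21178 sites, with 3542 sites higher in embryos by 0.2 or more and 2779 lower.

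Across the 28 pairs of tissues, fractions at the 8187 deep sites correlated most closely between light and dark plumules (Pearson's r 0.904) and least between seedlings of 2 weeks and endosperms (0.802). These coefficients run over sites that share their letters and genes. In seedlings of 2 weeks, 176 of the deep sites exceeded every other tissue by at least 0.2, beside 90 in endosperms, 89 in embryos, 56 in panicles, 54 in seedlings of 8 days, 41 in flag leaves, 29 in light plumules and 18 in dark plumules. Median depth at these sites was 116 in seedlings of 2 weeks, the lowest, and 165 to 235 elsewhere. Sites at least 0.2 below all other tissues were fewer, between 14 in panicles and 47 in endosperms.

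For each tissue the site furthest above and the site furthest below all others are described, which makes 16 sites. These were chosen for their values, so no test applies, and 15 of them were AAC sites. In 12 of the 16, some tissue held a fraction of exactly 0 or 1.

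Among the sites that stood above, Os04g0507500 at chr4:25354135 (minus strand, CAACC) had a fraction of 1 in flag leaves at a depth of 95, against 0 to 0.0717 in the other 7 tissues at depths of 65 to 231. It was the only one of the 16 counted in a single tissue. OsbZIP59, a bZIP transcription factor gene, had an AAACC site at chr7:5955406 (plus strand) with 0.888 in seedlings of 2 weeks, against 0.199 in light plumules, 0.0686 in dark plumules, 0.111 in seedlings of 8 days, 0.173 in panicles, 0.108 in flag leaves, 0 in embryos and 0.139 in endosperms. The depth was 69 in seedlings of 2 weeks and 93 to 190 elsewhere. Os06g0227200 (chr6:6596525, minus strand) reached 0.849 in embryos and at most 0.301 elsewhere, and Os02g0184100 (chr2:4693362, plus strand) reached 1 in endosperms and at most 0.4996 elsewhere. The remaining high sites lay in Os06g0720500 (0.783 in light plumules, at most 0.204 elsewhere), Os06g0139700 (0.658 in dark plumules, at most 0.179 elsewhere), Os03g0698900 (0.975 in seedlings of 8 days, at most 0.452 elsewhere) and Os01g0155600 (0.956 in panicles, at most 0.458 elsewhere).

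Other sites were high throughout and dropped in a single tissue. At chr10:22308532 (plus strand, CAACU) the calcium sensor gene CBL1 had a fraction of 0 in dark plumules at a depth of 63, against 0.558 in light plumules, 1 in both seedling ages, 0.973 in panicles, 0.599 in flag leaves, 1 in embryos and 0.673 in endosperms. SNRK1A, the catalytic subunit gene of an energy-sensing kinase, had 0 in endosperms at a depth of 54 and 0.504 to 1 elsewhere (chr5:26347321, minus strand, AAACC). OsUBC25, for a ubiquitin-conjugating enzyme, had 0.192 in seedlings of 2 weeks and 0.775 to 1 elsewhere (chr3:27111572, minus strand, GAACC). The sole GAC site, AGACA in Os06g0114500 (chr6:832632, minus strand), had 0.302 in flag leaves at a depth of 97 and 0.762 to 0.819 elsewhere at depths of 90 to 1046. The remaining low sites lay in Os07g0419800 (0 in light plumules, at least 0.405 elsewhere), OsAP65 (0.117 in seedlings of 8 days, at least 0.525 elsewhere), Os08g0162000 (0.402 in panicles, at least 0.942 elsewhere) and Os02g0125100 (0.482 in embryos, 1 in all others).

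At the upper end, 194 of the deep sites had a fraction of exactly 1 in all 8 tissues, 57 of them AAC and 137 GAC. The most deeply read of these lay in OsARP (chr2:15676471, GAACC, depths of 974 to 7873), OsRPL35 (chr2:17847769, GGACA, 808 to 3830), Os10g0411800, Os01g0191100 and OsGSTF2. OsRPL35 encodes a ribosomal protein and OsGSTF2 a glutathione S-transferase. Of these 5 sites, 3 shared the letters GAACC and the other 2 the letters GGACA, the 5-mers with the highest mean fractions of their centres.

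Host genes were more abundant than other expressed genes. In each tissue 33.6 to 42.7% of the genes with at least 1 TPM were hosts, and the median TPM was 15.7 to 30.7 for hosts and 4.22 to 7.08 for other genes, a ratio of 3.43 to 4.51. Reads are needed to reach the depth minimum, so abundance is partly built into being a host. The ratio averaged 3.83 at the TPM minimum of 1 but 1.79 with a minimum of 5. By abundance, hosts made up 6.84% of genes at 1 to 5 TPM, 31.8% at 5 to 10, 50.8% at 10 to 20, 62.4% at 20 to 50, 67.5% at 50 to 100 and 65.4% at 100 TPM or more. The share thus levelled off above about 50 TPM, and with it the number of sites, at 3.06 and 2.95 for each host in the top classes beside 1.57 in the lowest. Over host genes the gene mean fraction and TPM were hardly related (Spearman's rho -0.03 to 0.05 by tissue), whereas site number and TPM were loosely related (0.198 to 0.316). Over sites with a depth of 50 or more, however, the mean fraction was higher in the more abundant classes, at 0.351 for 1 to 5 TPM, 0.354, 0.393 and 0.435 for the next classes, 0.448 for 50 to 100 TPM and 0.430 from 100 TPM up.

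**Figure D5:**
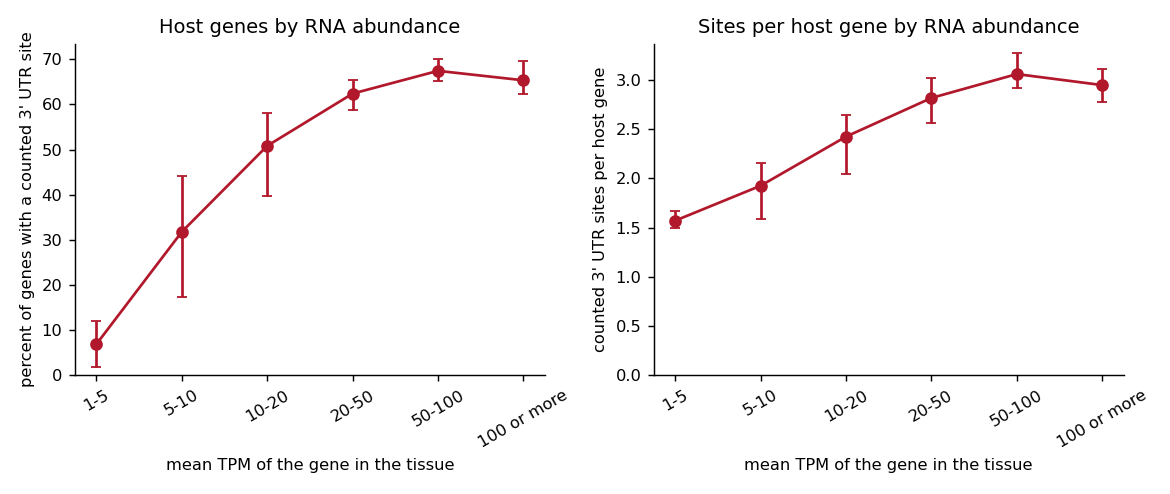
Percent of expressed genes with a counted 3′ UTR purine-A-C site (left) and counted sites per host gene (right) by mean TPM of the gene in the tissue (horizontal axis); points are means over the 8 tissues and bars run between the lowest and the highest tissue. The share is 6.84% at 1 to 5 TPM and 65.4% at 100 TPM or more.

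Over all expressed genes, 11946 of 28735 (41.6%) hosted a counted site in some tissue. Ribosomal protein genes were hosts in 58 of 70 cases (82.9%), with a median highest-tissue level of 423 TPM. Among transcription factors, auxin response factor genes (20 of 25), MADS genes (22 of 30), SPL genes (14 of 21) and bZIP genes (36 of 61) were above the share of all genes. The bHLH genes (44 of 115, 38.3%) were close to that share, and WRKY genes (19 of 91, 20.9%) were below it. The median highest-tissue level was 68.4 TPM for the auxin response factor list, 51.0 for MADS genes, 41.1 for SPL genes and 20.5 for bZIP genes. It was 21.2 TPM for bHLH genes and 17.4 TPM for the WRKY list, beside 20.03 TPM for all genes. Within a tissue, hosts made up 62.4% of genes at 20 to 50 TPM and 67.5% at 50 to 100 TPM. The part of abundance in the shares of these lists was not tested. Aux/IAA genes (21 of 29, median highest-tissue level 69.2 TPM) and CCCH zinc finger genes (38 of 52, 30.2 TPM) were also often hosts. RLCK genes (72 of 214, 15.9 TPM) and GELP genes (30 of 89, 48.0 TPM) were below the share of all genes. F-box genes carrying that name (3 of 5) were few. Of 5 gene IDs listed as m6A methyltransferase complex genes, for which the tables give no matching symbol, 3 were hosts (Os01g0267100, Os02g0672600 and Os10g0447600, with 5, 4 and 2 sites), and no gene symbol matched the YTH list. Of the marker genes, 3 of 25 for embryos, 1 of 3 for endosperms, 1 of 3 for leaves and 6 of 6 for panicles were hosts.

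Levels differed between these lists as well. The median gene mean fraction was 0.477 for SPL genes, 0.443 for MADS genes, 0.427 for auxin response factor genes and 0.424 for ribosomal protein genes, beside 0.414 for all hosts, and lower at 0.315 for WRKY genes, 0.292 for GELP genes and 0.266 for Aux/IAA genes. These counts and medians describe the lists and were not tested.

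The circadian clock and heading date genes differed widely in their number of sites. Of 11 expressed members 8 were hosts in some tissue, beside 41.6% of all expressed genes. Within a single tissue, hosts made up 67.5% of genes at 50 to 100 TPM. The hosts on this list had 42 sites and a mean of 5.25 each, beside 2.88 over all host genes in the expression table. OsPRR73, CCA1, GI and Hd2 had 7 to 11 sites each. OsELF3.2, OsPRR1, OsPRR95 and HD3A had 1 to 3. OsPRR73, a pseudo-response regulator of the clock, had 11 sites within 801 nt of a transcript (chromosome 3, 9759709 to 9760510), 7 of them counted in all 8 tissues. At 9759979 (AAACC) the fraction was 0.864 in light plumules, 1 in dark plumules, 1 and 0.873 in seedlings of 8 days and 2 weeks and 1 in the other 4 tissues. The summed fraction of the gene's counted sites lay between 4.48 and 5.75, while its abundance ranged between 16.1 ± 1.97 TPM in endosperms and 141 ± 0.475 TPM in flag leaves. That sum takes in 8 to 11 sites by tissue, since sites below a minimum drop out. At 9759709 (AGACA) the fraction was 1 in every tissue, but light plumules missed the depth minimum at a depth of 19. How the sum relates to abundance was not tested.

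GI, the rice ortholog of GIGANTEA, had 7 sites, 6 of them counted in all 8 tissues. Its UGACA site at chr1:4329537 (minus strand) was nearly complete everywhere, at 0.957 to 1 with depths of 124 to 1222. The UAACC site at 4329458 was more variable, with 0.424 in light plumules, 0.619 in dark plumules, 0.470 and 0.663 in seedlings of 8 days and 2 weeks, 0.510 in panicles, 0.781 in flag leaves, 0.894 in embryos and 0.666 in endosperms. CCA1, a MYB factor of the morning clock loop, had 8 sites within 137 nt, of which AGACU at chr8:3373292 (plus strand) had fractions of 0.903 to 1. CCA1 ranged between 7.29 ± 0.639 TPM in panicles and 446 ± 10.9 TPM in seedlings of 2 weeks. Its 8 sites were all counted in 6 of the tissues, against 5 in panicles and 6 in seedlings of 8 days. Depths were 10 to 31 in panicles and 15 to 55 in seedlings of 8 days, where the AAACC site at 3373278 had a fraction of 0 at a depth of 42.

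Hd2, OsELF3.2, OsPRR1 and OsPRR95, further clock and heading date genes, had 7, 3, 3 and 2 sites, with site means of at most 0.479 except in OsELF3.2. There a CAACU site was 1 in panicles at a depth of 28 and 0 in every other tissue at depths of 13 to 48. HD3A, which encodes a florigen, had a single site, counted only in panicles (0.416 at a depth of 27), where the gene stood at 21.4 ± 0.195 TPM against at most 2.02 TPM elsewhere. Its depths elsewhere were 0 to 4. SE1, HD3B and GHD7 had no counted site, at up to 2.85, 47.9 and 1.35 TPM in their highest tissue.

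Photoreceptor genes had moderate numbers of sites. Of 6 members 5 were hosts in some tissue, with 17 sites in all, beside 41.6% of all expressed genes. Within a single tissue, hosts made up 67.5% of genes at 50 to 100 TPM. PHYA, the phytochrome of far-red light responses, had 3 sites, and its AAACA site at chr3:29168283 (minus strand) varied strongly, with 0.389 in light plumules, 0.603 in dark plumules, 1 in both seedling ages, 0.549 in panicles, 0.276 in flag leaves, 0.925 in embryos and 1 in endosperms. In the red light receptor gene PHYB, 5 sites were counted, and only UGACA at chr3:11028132 (plus strand) was high, at 0.757 to 1 in the 7 tissues with enough depth. The other 4 had means of 0.122 to 0.335.

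The blue light receptor gene OSCRY2 had a GAACU site at chr2:24922000 (plus strand) with a fraction of 1 in every tissue, 6 of which reached the depth minimum, and OsCRY1b had an AGACA site at chr4:22554921 (plus strand) of the same kind, counted in 4 tissues. In OSCRY2 the UGACA site 9 nt downstream had 0.0887 to 0.640 in those 6 tissues. OsCRY1a had 1 site, with a mean of 0.642, and PHYC had none at 4.18 to 52.8 TPM.

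Starch synthesis genes, which peak in endosperms, were hosts in 7 of 10 cases with 25 sites and mostly low fractions. Their median highest-tissue level was 867 TPM, and among all genes of 100 TPM or more 62.3 to 69.6% were hosts in a tissue. SBE1 and SBE3, starch branching enzyme genes, had 9 and 5 sites. At chr6:30898310 (minus strand, GAACU) SBE1 had a fraction of 0.194 in embryos and 0.192 in endosperms, against 0.302 to 0.649 in the other 6 tissues. Depths were 1964 in embryos and 18583 in endosperms, against 75 to 269 in the other tissues. Its AAACC site at 30898255 went the same way, with 0.156 in embryos and 0.102 in endosperms against 0.265 to 0.888 elsewhere. Depths at this site were 1025 and 11293 against 46 to 149. Mean fractions of counted sites were lower at greater depth in general, and the part of depth here was not tested. Abundance of SBE1 was 185 ± 3.14 TPM in embryos and 1719 ± 98.2 TPM in endosperms, against 24.2 to 41.4 TPM elsewhere, and both of these sites were lowest in endosperms. A further AAACA site of SBE1, at 30898197, did not follow them, with 0.215 in embryos and 0.144 in endosperms against 0 in panicles, 0.106 in seedlings of 8 days and 0.127 in dark plumules. In SBE3, the GAACC site at chr2:19355870 (minus strand) had 0.575 in embryos and 0.797 in endosperms.

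WX1, for the amylose-making granule-bound starch synthase, had a GGACC site at chr6:1770569 (plus strand) with 0.495 in embryos, 0.396 in endosperms, 0.652 in panicles and 0.211 in flag leaves, at depths of 201, 4340, 30 and 21. The large and small subunit genes of ADP-glucose pyrophosphorylase, AGPL2 and OsAGPS2a, had 2 sites and 1 site. The AGACG site of AGPL2 was 0.101 in embryos and 0.127 in endosperms at depths of 1349 and 11510, against 0.147 to 0.395 elsewhere at depths of 22 to 99. SSI had 4 sites and OsPHS8 had 2, while Pho1, OsPUL and ALK had none counted although they reached 364, 831 and 377 TPM in endosperms.

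Of 7 photosynthesis genes 2 were hosts, with 3 sites in all. Among all genes of 100 TPM or more, 62.3 to 69.6% were hosts in a tissue, and the difference was not tested. OsRcaII, for Rubisco activase, had a UAACC site of 0.131 to 0.236 over the tissues (chr11:28933242, minus strand) and a UGACA site that passed 0.1 only in panicles among tissues of sufficient depth (0.101). At 12736 ± 532 TPM it was the most abundant host of seedlings of 2 weeks. RbcS5, a Rubisco small subunit gene, had an AGACC site of 0.105 to 0.162 in 7 tissues. CAB1R, CAB2R and the other Rubisco small subunit genes (RbcS3 and both named RBCS) had no counted site at up to 9941, 13766, 12133, 11167 and 1811 TPM.

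The most abundant host genes of the remaining tissues had 1 to 3 sites each. OsBURP02 led in light plumules (5144 ± 243 TPM) and dark plumules (5339 ± 164 TPM) with a single site, whose fraction was 0.594 in light plumules, 0.575 in dark plumules, 0.607 in seedlings of 8 days and 0.927 in seedlings of 2 weeks. OsPAL, for phenylalanine ammonia-lyase, led in panicles (9231 ± 158 TPM) with 3 sites of mean 0.168 to 0.265, and the photosystem II subunit gene OsPsbR3 led in flag leaves (5814 ± 297 TPM) with 1 site of mean 0.516. Os04g0414700 led in seedlings of 8 days with 2 sites. Os1-CysPrxA, for a 1-Cys peroxiredoxin of seeds, led in embryos (6153 ± 172 TPM) with a site of 0.123, and the glutelin gene GluC led in endosperms (13334 ± 1146 TPM) with 2 sites of mean 0.101 and 0.381.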

How the data were processed

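Poly(A) RNA of 8 tissues was profiled with m6A-SAC-seq. The authors detected sites with a public pipeline for m6A-SAC-seq and the IRGSP-1.0 genome of Ensembl. As to the aligner and tool versions, nothing is given in the sources used here. The deposited site table gives a fraction (mutation rate calibrated by the authors against spike-in probes, replicates combined), a read depth as a whole-number count, and a TRUE or FALSE detection flag whose rule is not stated, for each site and tissue. One flag header is misspelled and was taken as seedlings of 2 weeks. Of the counted site and tissue values, 73.6% carry the flag. The deposited expression table gives TPM by the authors for 16 untreated libraries. There were 0 per-sample columns without a sample.

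The members and gene lists were chosen with earlier results of these data known. Sites were counted from a fraction of 0.1 and a depth of 20 upwards. Means over counted sites were compared over tissues by an exact sign-flip test, and reproductive with vegetative tissues by an exact permutation test (56 groupings), both two-sided, with Benjamini-Hochberg adjustment over 6 tests. Distances used transcript positions. SDs over tissues are not replicate errors, and exact (Clopper-Pearson) 95% intervals cover counting of sites only. TPM errors are SDs of 2 libraries. The study's methods call the replicates biological.

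Genes and sites named were the 5 genes with most sites, the 5 with most sites counted in all tissues, the 3 densest in 50 nt, for each tissue the site furthest above and the site furthest below the others among sites read 50 or more times in all tissues, the 5 sites with the highest lowest-tissue fraction (ties by summed depth), members of fixed lists (photoreceptors, clock and heading date, starch, photosynthesis, m6A methyltransferases, with other lists described by their hosts), and the most abundant host of each tissue. Joined runs were named besides. Alternatives were other depth and fraction minimums, the flag, values of exactly 1 left out, DRACH sites only (85.5% of members), gene means, other windows, genomic distances, other TPM minimums and each tissue left out. AAC or GAC sites alone, no fraction minimum and a depth minimum of 300 were added after seeing the data. Computations ran in Python 3.11.15 with scipy 1.17.1, numpy 2.4.6 and pandas 2.3.3, figures were drawn in matplotlib 3.10.9, and the functions were tested on simulated data.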

Additional observations from a re-analysis of the deposited data

How the results depend on the processing

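Differences in mean fraction between 3′ UTR RAC sites and CDS RAC sites or 3′ UTR GAT sites, and in the share of sites with a neighbour, kept their direction and exact permutation p of 0.00781 or 0.0156 under all 18, 16 and 20 alternatives, at 0.0765 to 0.284, 0.138 to 0.231 and 18.1 to 49.3 percentage points. The difference between AAC and GAC sites was -0.0180 (exact permutation p = 0.00781, 0 of 8 tissues positive) at a fraction minimum of 0.2 and 0.00844 (p = 0.320 by the same permutation test) at a depth minimum of 300. Sites per host gene differed by -0.119 with GAC sites only and by 0.0116 (exact permutation p = 0.602) with no fraction minimum. The last 3 of these settings were added after seeing the data, and the cause of each change was not tested. The share of sites counted in all 8 tissues, 54.8%, was 61.7% at a depth minimum of 50, 50.5% at 10, 41.1% at a fraction minimum of 0.2, 33.5% with the authors' flag, 40.8% without values of exactly 1 and 56.5% for DRACH sites. The host to other TPM ratio of 3.83 was 1.79 at a TPM minimum of 5 and 42.1 with none, when unexpressed genes enter the others.

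With each tissue left out in turn, the differences ranged over 0.233 to 0.238 (CDS), 0.1984 to 0.2004 (GAT), 0.0353 to 0.0387 (AAC against GAC), 0.561 to 0.594 (sites per gene), 41.3 to 41.9 percentage points (neighbours) and 0.00828 to 0.0205 (reproductive against vegetative, exact permutation p = 0.0571 to 0.619). The light to dark and embryo to endosperm differences kept their sign under 6 alternatives each. No paired analysis was possible because the site columns hold 1 pooled value for each tissue and carry no replicate numbers. Depth limits single fractions most in seedlings of 2 weeks.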
